A study of Mus musculus with 15 samples.

Results

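The 9 genes described here encode the 4 secreted R-spondins (Rspo1, Rspo2, Rspo3 and Rspo4), their receptors Lgr4, Lgr5 and Lgr6, and the transmembrane ubiquitin ligases Rnf43 and Znrf3. They were found by matching Ensembl gene identifiers to mouse symbols, and all 9 were among the 43629 genes of the count table. As background, Wnt ligands signal through Frizzled receptors and the co-receptors Lrp5 and Lrp6, and RNF43 and ZNRF3 mark Frizzled receptors for removal from the cell surface. An R-spondin that binds an LGR receptor together with either ligase clears the ligase from the membrane, so that more Frizzled remains. In the intestine R-spondins come mainly from stromal cells beneath the crypt, Lgr5 marks the stem cells of the crypt base, and Rnf43, Znrf3 and Lgr5 are known targets of Wnt signalling.

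RNA was sequenced from mouse intestinal organoids of strain C57B6/129, which are epithelial cultures grown without stroma. The 5 WT libraries were grown in ENR medium, which contains EGF, Noggin and R-spondin; 4 came from Apc flox/flox lines with the numbers 1, 2, 5 and 6, and the fifth from a dox-naive culture whose inducible Cas9 was never activated. The 4 Apc libraries bear the same numbers and were taken as these lines with both Apc alleles deleted (Apc delta/delta). The 4 P-Rspo3 libraries carry an inversion between Ptprk and Rspo3 and are called 15d, 4d, M and F after their titles. Both mutant groups were grown in EN medium, without R-spondin, so against WT the genotype and the medium cannot be told apart, whereas Apc and P-Rspo3 shared a medium. According to the study, the P-Rspo3 cultures were polyclonal populations of doxycycline-treated cells, selected by growth in EN. They derive from mice with inducible Cas9 and not from the Apc flox/flox lines. Line of origin therefore also differs between P-Rspo3 and Apc, and between P-Rspo3 and the numbered WT libraries. The doxycycline treatment of P-Rspo3 cannot be told apart from its genotype either. The labels do not say how Apc was deleted in each line or whether the P-Rspo3 libraries come from separate animals, so p-values measure only the spread between these samples. The 13 libraries held 28902729 to 35528495 counts, and for 2 further libraries (LIPO and NAIVE_F) the title and the genotype conflict, so they entered no group.

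The inversion joins Ptprk, which encodes a receptor-type tyrosine phosphatase, to Rspo3 on chromosome 10. On GRCm38, Ptprk occupies 28074820 to 28597397 on the plus strand and Rspo3 occupies 29452416 to 29535867 on the minus strand. The sites of the guide pair that the study built into the mice were read from GENCODE M21 transcripts that span them, and are shown because they fix where the genes were cut. Each is written 5′ to 3′ on the strand the guide reads, with the 3-base PAM in capitals:
Ptprk intron 1, chr10:28075925-28075947, minus strand: agggtaagccttccgggaatGGG
Rspo3 intron 1, chr10:29534744-29534766, minus strand: gatcatcccaaattcccgccTGG
The Rspo3 guide matched all 20 bases of its site, and the Ptprk guide matched the 19 bases next to the PAM. The Ptprk site lies 748 bases into an intron of 130956 bases, and the Rspo3 site 466 bases into an intron of 28652 bases. Cuts at the usual position bound an interval of 1458819 bases, from 28075931 to 29534749.

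Inversion of this interval would place exon 1 of Ptprk, with the Ptprk promoter, ahead of exons 2 to 5 of Rspo3. The coding part of exon 1 is 97 bases long in both genes, and exon 2 of Rspo3 supplies the 2 bases that complete the split codon. Joined in this way the coding sequence would be 831 bases long, as in Rspo3 itself, with no shift of frame. The predicted junction and the normal Rspo3 junction are shown for comparison, with exon 2 of Rspo3 in capitals:
Ptprk exon 1 to Rspo3 exon 2: gccagttctcagcagTGCATCCTAATGTCA
Rspo3 exon 1 to Rspo3 exon 2: ggcgccagcgaagaaTGCATCCTAATGTCA
Reads across either junction were not analysed here. A count for Rspo3 therefore includes normal and fused transcripts, and a count for Ptprk includes any transcript that holds its exons.

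Rspo3, an R-spondin that potentiates Wnt signalling, was the ligand with appreciable RNA in any group. The WT libraries 1, 2, 5, 6 and naive held 1, 0, 0, 0 and 0 Rspo3 counts. In P-Rspo3 the replicates 15d, 4d, M and F held 1079, 539, 1049 and 867 counts, or 11.5, 6.26, 11.5 and 10.1 FPKM (fragments scaled to transcript length and library size). The groups were far apart, and replicate 4d was the lowest of the 4. Summed over libraries and corrected for their totals, without TMM factors as for all ratios of summed counts here, the ratio of P-Rspo3 to WT was 4450 (exact 95% counting interval 798 to 175800, which covers counting error only), and its upper end is wide because WT held 1 count in all.

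Across all genes, edgeR's quasi-likelihood test gave Rspo3 a log2 fold change of 11.39 (SE 0.42, Benjamini-Hochberg adjusted p = 8.1e-07) between P-Rspo3 and WT. The fitted size depends on a small count added to WT and is not a bound. Its SE is derived from the F of the test and gives a much narrower spread than the counting interval above. Genes were called at an adjusted p under 0.05 with an absolute log2 fold change above 1. Of the 9 genes, 5 passed the filter of at least 0.1 FPKM in 4 libraries, and Rspo3 passed it only through P-Rspo3, where it was high. Rspo3 was the 1 gene of these 5 called higher, and none was called lower. Over the whole table Rspo3 was also the only call in this fit, 0.00625% of 15992 genes called higher and 0% called lower by edgeR. In that fit 2159 genes had an unadjusted p under 0.05, and DESeq2 called 55 higher and 173 lower.

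Rspo3 was also present at a low level in Apc. Replicates 1, 2, 5 and 6 held 45, 57, 7 and 23 counts, or 0.460, 0.669, 0.0760 and 0.229 FPKM. Every Apc library lay above every WT library, and replicate 5 was the lowest. The mean was 0.873 ± 0.632 CPM (counts scaled to the library total with TMM factors; SD, n = 4) in Apc and 0.00638 ± 0.0143 CPM (SD, n = 5) in WT. This was below the FPKM filter, so it was examined after the counts had been seen. A two-sided exact permutation test over libraries gave p = 0.0159, the smallest that 4 against 5 allows. After Benjamini-Hochberg adjustment over 4 tests of Rspo3 and Rspo4 it was 0.0317. The groups had already been seen not to overlap, so this p was fixed in advance. Without the FPKM filter, edgeR gave Rspo3 an adjusted p of 4.8e-05 over all genes. The ratio of summed counts, Apc to WT, was 153 (exact 95% counting interval 27.0 to 6088).

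The Apc level of Rspo3 was a small part of that in P-Rspo3. The ratio of summed counts, Apc to P-Rspo3, was 0.0344 (exact 95% counting interval 0.0287 to 0.0409), and the log2 fold change was -5.09 (SE 0.51, edgeR adjusted p = 3.1e-05) in a fit whose filter Rspo3 again passed only through P-Rspo3. The highest Apc library (0.669 FPKM) was well below the lowest P-Rspo3 library (6.26 FPKM). Markers of stroma, the usual source of R-spondins, were read in the same libraries. Of 12 stromal markers, 6 had at most 3 counts in every library. Col3a1, Dcn, Lum, Foxl1 and Grem1 were among these 6, and Col1a1 reached 15 counts in Apc and 4 in P-Rspo3. Summed over the list, the level was 4.34 to 10.4 CPM in P-Rspo3, 6.10 to 7.55 CPM in WT and 28.7 to 410.3 CPM in Apc. Of the 3 stromal markers tested between Apc and WT, Vim and Pdgfra were called higher in Apc and Pdgfrb lower, and Pdgfra (0 to 4 counts in WT) passed the filter only through Apc. Between P-Rspo3 and WT only 2 of the 12, Vim and Pdgfrb, were tested, and neither was called. The 4 endothelial markers summed to 5.57 to 9.36 CPM in Apc, 0.829 to 1.38 CPM in WT and 0.772 to 1.28 CPM in P-Rspo3. Of these, Cdh5 had 217 to 372 counts in Apc and 0 in every WT and P-Rspo3 library, Pecam1 was called lower in Apc, and Kdr was at 0 throughout. The 4 leukocyte markers summed to 1.17 to 2.01 CPM in Apc, 6.17 to 12.6 CPM in WT and 3.34 to 10.2 CPM in P-Rspo3. The part of these genes in the Apc level of Rspo3 was not tested.

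An antisense gene, Gm48159, overlaps 404 exonic bases of Rspo3, 13.1% of its exons. The strand setting of the counting is not given in the sources used here, so reads from this overlap cannot be assigned with certainty. None of the other 8 genes shares exonic bases with another annotated gene.

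Ptprk was followed as the partner of Rspo3. In WT replicates 1, 2, 5, 6 and naive it had 14.4, 13.1, 13.6, 18.6 and 13.5 FPKM. In P-Rspo3 replicates 15d, 4d, M and F it had 7.90, 13.3, 7.94 and 6.57 FPKM. On this scale replicate 4d lay within the WT range and the other 3 P-Rspo3 libraries lay below it. In TMM-scaled CPM all P-Rspo3 libraries (55.3 to 107.2) lay below all WT libraries (107.4 to 148.1), 4d by a narrow margin. The log2 fold change was -0.72 (SE 0.19), which did not pass the test (edgeR adjusted p = 0.15, DESeq2 adjusted p = 0.011 but within the fold threshold). The P-Rspo3 library with the highest Ptprk level, 4d, was the library with the lowest Rspo3 level.

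The sum of both genes was taken after these values had been seen, as a description. In P-Rspo3 it came to 19.4, 19.6, 19.5 and 16.7 FPKM in replicates 15d, 4d, M and F. The WT sum, which is almost all Ptprk, was 13.1 to 18.6 FPKM, and the Apc sum was 18.6 to 24.6 FPKM. FPKM carries no TMM factor. In the TMM-scaled fit, Ptprk in Apc against WT had a log2 fold change of 0.25 (edgeR adjusted p = 0.065) and was not called. Rspo3 made up 59.3%, 32.0%, 59.3% and 60.6% of the sum in P-Rspo3 replicates 15d, 4d, M and F, and 0.310% to 3.18% in Apc.

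**Figure D1:**
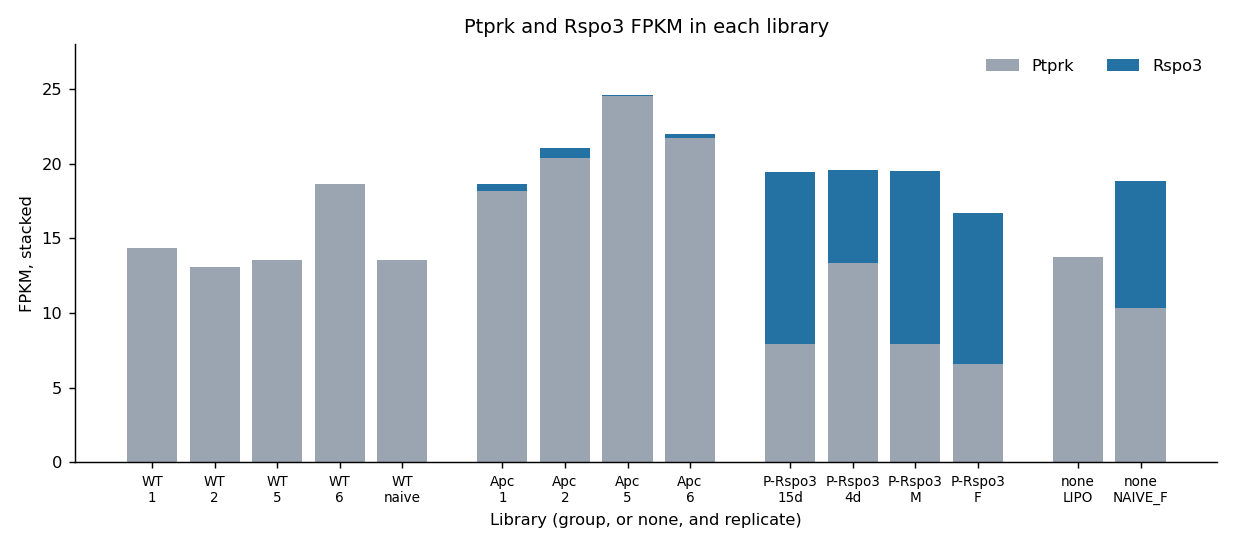
FPKM of Ptprk (grey) and Rspo3 (blue) stacked for each of the 15 libraries, by group and replicate, with the 2 libraries in no group on the right. Rspo3 is visible as 6.26 to 11.5 FPKM in each P-Rspo3 library and as 8.54 FPKM in NAIVE_F, and is at most 0.669 FPKM in Apc.

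The other ligands were at or near zero. Rspo1, the R-spondin that is supplied as protein in ENR medium, had 0 counts in all 13 libraries, which allows up to 3 counts in a library, or 0.0724 to 0.112 CPM with TMM scaling. Rspo2 had 1 count, in WT replicate 5, and 0 elsewhere. Rspo4, an R-spondin known for its role in nails, had 4, 10, 4, 9 and 5 counts in WT replicates 1, 2, 5, 6 and naive, and 4, 8, 7 and 10 in Apc replicates 1, 2, 5 and 6. In P-Rspo3 replicates 15d, 4d, M and F it had 1, 2, 3 and 1 counts, each at or below the level of 3 counts taken here as the limit of detection.

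Rspo4 was below the FPKM filter in all comparisons, and was examined after its counts had been seen. The ratio of summed counts, P-Rspo3 to WT, was 0.275 (exact 95% counting interval 0.103 to 0.635), with a mean of 0.0586 ± 0.0312 CPM (SD, n = 4) against 0.217 ± 0.0975 CPM (SD, n = 5). The groups did not overlap (two-sided exact permutation test, p = 0.0159, the smallest possible, 0.0317 after Benjamini-Hochberg adjustment over 4 tests). The test was run after this had been seen, so its p was fixed in advance. In the edgeR fit without the FPKM filter the adjusted p over all genes was 0.20, so this difference did not pass. Apc and WT differed by less than the spread between libraries (ratio 1.05, exact 95% counting interval 0.613 to 1.79). In TMM-scaled CPM the direction was the opposite, as WT had 0.217 ± 0.0975 (SD, n = 5) and Apc had 0.188 ± 0.0629 (SD, n = 4), with p = 0.667 in the exact permutation test. Between Apc and P-Rspo3 the ratio was 3.81 (exact 95% counting interval 1.64 to 10.3). The exact permutation test gave p = 0.0286, the smallest possible, and 0.0381 after the same adjustment. The unfiltered edgeR fit called Rspo4 higher in Apc (adjusted p = 0.034). Every P-Rspo3 library was at or under 3 counts, so the size of either ratio that involves P-Rspo3 is uncertain.

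Among the receptors, Lgr4, the LGR receptor found widely in epithelia, was the more even. WT replicates 1, 2, 5, 6 and naive had 29.4, 29.9, 26.9, 37.0 and 29.6 FPKM, and P-Rspo3 replicates 15d, 4d, M and F had 31.8, 31.3, 29.7 and 27.1 FPKM. Apc replicates 1, 2, 5 and 6 had 69.4, 64.9, 66.8 and 63.8 FPKM, all above the libraries of both other groups. The fitted log2 fold change of Apc against WT was 0.82 (SE 0.077, edgeR adjusted p = 5.9e-06), which passed the adjusted p and not the fold threshold. On log2(FPKM + 1), limma gave Lgr4 1.10 and called it higher, but on that scale the median of all genes was itself shifted by 0.17. Between P-Rspo3 and WT the log2 fold change was -0.03, with a 95% interval of -0.21 to 0.15 (edgeR adjusted p = 0.91).

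Lgr5, the receptor that marks intestinal stem cells, varied more within groups. WT replicates 1, 2, 5, 6 and naive had 19.7, 37.5, 29.2, 38.0 and 25.1 FPKM. Apc replicates 1, 2, 5 and 6 had 76.8, 102.7, 122.2 and 96.9 FPKM, and P-Rspo3 replicates 15d, 4d, M and F had 32.3, 16.9, 27.6 and 12.1 FPKM. Apc was separated from both other groups, while P-Rspo3 and WT overlapped and replicates 4d and F were below the lowest WT library. Lgr5 was higher in Apc than in WT (log2 fold change 1.45, SE 0.19, edgeR adjusted p = 6.5e-05). Between P-Rspo3 and WT the difference was within the spread (-0.42, 95% interval -1.04 to 0.20, edgeR adjusted p = 0.55), and the interval includes a difference as large as the fold threshold.

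Lgr6, a receptor known from skin and hair follicles, was at 0 counts in all WT and P-Rspo3 libraries. Apc replicates 1, 2, 5 and 6 held 2, 4, 0 and 2 counts. Since 3 of the 4 Apc libraries were themselves at or under 3 counts, no fold is given. In the unfiltered edgeR fit the adjusted p was 0.047 against WT and 0.073 against P-Rspo3.

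**Figure D2:**
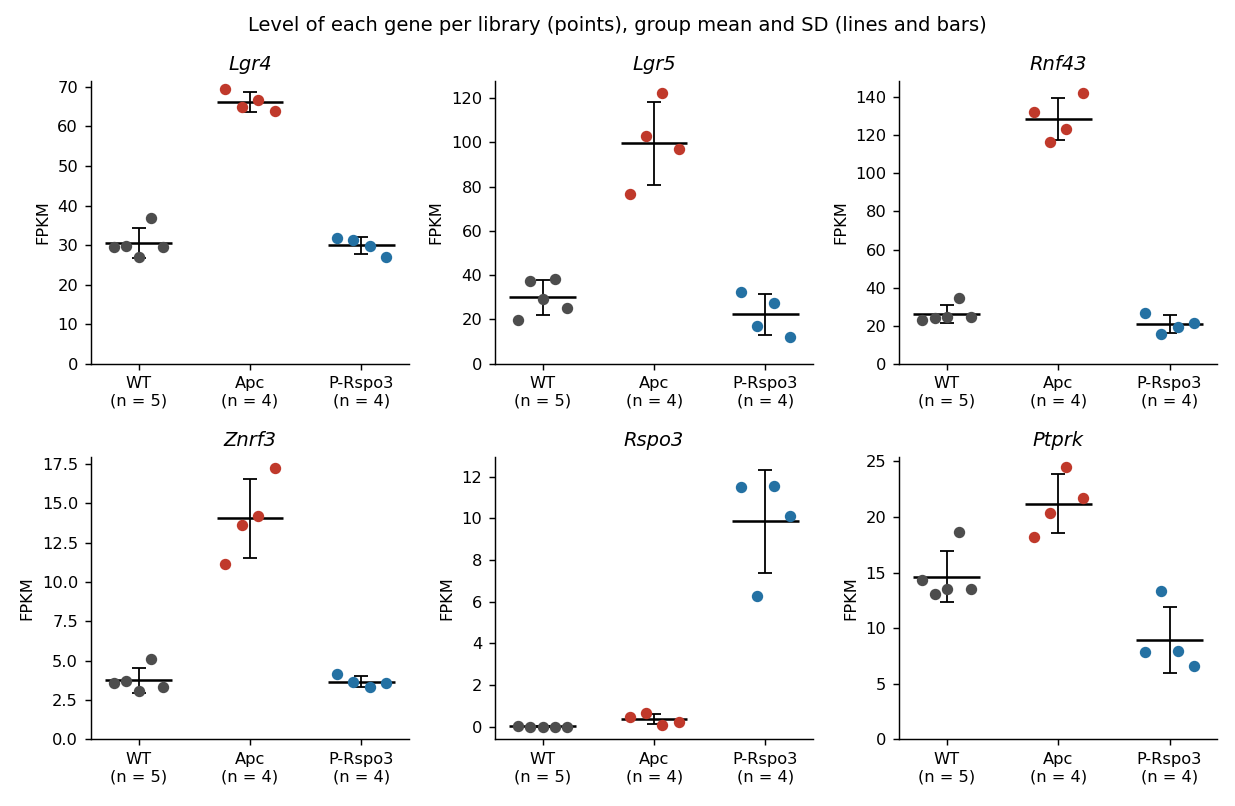
FPKM of Lgr4, Lgr5, Rnf43, Znrf3, Rspo3 and Ptprk in each library (points) of WT (grey, n = 5), Apc (red, n = 4) and P-Rspo3 (blue, n = 4), with the group mean (line) and SD (bar); each panel has its own scale. All Apc points of Lgr4, Lgr5, Rnf43 and Znrf3 lie above all WT and P-Rspo3 points, and Rspo3 is high in P-Rspo3. The share of all genes that separate in this way was not counted.

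Of the ligases, Rnf43 had 23.1, 23.9, 24.7, 34.5 and 24.4 FPKM in WT replicates 1, 2, 5, 6 and naive, and 132.1, 116.4, 123.4 and 142.2 FPKM in Apc replicates 1, 2, 5 and 6. In P-Rspo3 replicates 15d, 4d, M and F it had 26.6, 15.4, 19.4 and 21.5 FPKM. Apc lay wholly above WT, and 3 of the 4 P-Rspo3 libraries lay below the lowest WT library. The log2 fold change of Apc against WT was 1.99 (SE 0.11, edgeR adjusted p = 1.4e-07). Between P-Rspo3 and WT it was -0.46 (95% interval -0.77 to -0.16), which did not pass the test across all genes (edgeR adjusted p = 0.19, unadjusted p = 0.0071, DESeq2 adjusted p = 0.058).

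Znrf3, the closest relative of Rnf43, was present at a lower level per length. It had 3.59, 3.70, 3.08, 5.09 and 3.32 FPKM in WT replicates 1, 2, 5, 6 and naive, and 11.1, 13.6, 14.2 and 17.2 FPKM in Apc replicates 1, 2, 5 and 6. In P-Rspo3 replicates 15d, 4d, M and F it had 4.17, 3.64, 3.32 and 3.58 FPKM, inside the WT range. The log2 fold change of Apc against WT was 1.61 (SE 0.14, edgeR adjusted p = 3.5e-06), and between P-Rspo3 and WT it was -0.05 (95% interval -0.33 to 0.24, adjusted p = 0.92).

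Of the 9 genes, 4 passed the FPKM filter in Apc against WT, and 3 of them (Lgr5, Rnf43 and Znrf3) were called higher and 0 lower. By the same edgeR rule 12.2% of 16749 genes were called higher and 14.1% lower, and by the adjusted p alone, under which all 4 rose, 30% were higher. The median log2 fold change of the 4 was 1.53, beside 0.00058 over all genes tested. Differences between Apc and WT were common, as 10513 of the 16749 genes had an unadjusted edgeR p under 0.05. The share of all genes without overlap between these groups was not counted. Apc organoids also differed from WT in cell-type markers. All 8 enterocyte markers were called lower and their summed level was 29.9 to 60.6 CPM, against 7663 to 16290 CPM in WT. Of 7 Paneth cell markers 5 were called lower and 2 higher. Of 8 stem cell markers 3 were called higher (Ascl2, Axin2 and Smoc2) and Olfm4 was called lower, by a log2 fold change of -9.78. In bulk RNA, more cells of a type and more RNA per cell cannot be told apart, and the part of these shifts in the receptor and ligase levels was not tested.

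Libraries with the same number, taken as the same line, could be compared before and after deletion of Apc. Rnf43, in TMM-scaled CPM, was 4.67-fold, 3.55-fold, 3.58-fold and 3.72-fold higher in lines 1, 2, 5 and 6. The corresponding ratios of Znrf3 were 2.66, 3.03, 3.58 and 2.83, and those of Lgr5 were 3.12, 2.28, 3.46 and 2.08. Lgr4 had smaller ratios, of 1.97, 1.74, 1.95 and 1.46. These 4 genes were higher in Apc in 4 of 4 lines, and line 6 had the lowest ratio for both receptors. The share of all genes higher in every line was not counted. Ptprk had ratios of 1.10, 1.26, 1.43 and 0.984.

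**Figure D3:**
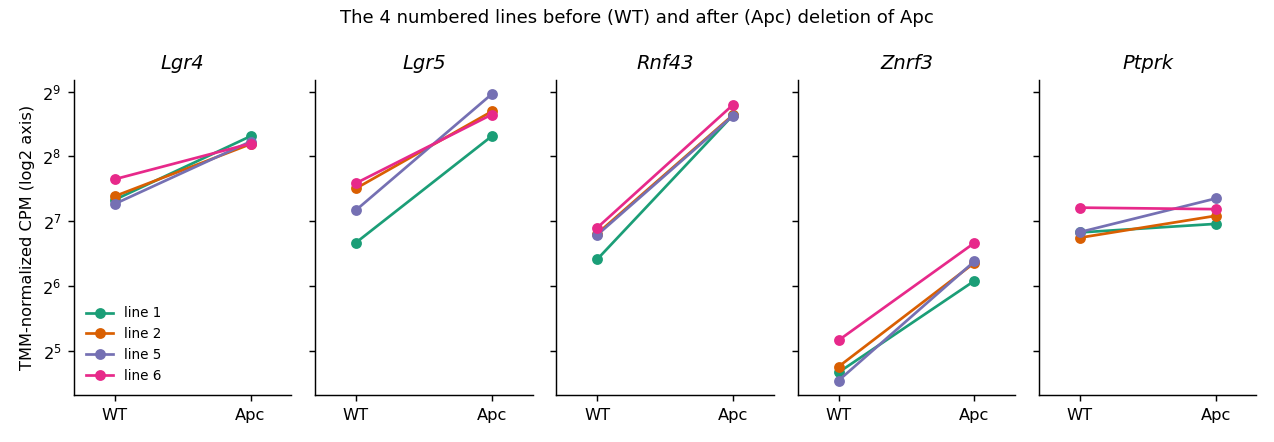
TMM-scaled CPM on a log2 axis for the 4 numbered lines as WT and as Apc, with 1 coloured line for each. Lgr4, Lgr5, Rnf43 and Znrf3 rise in each line, with ratios from 1.46 (Lgr4, line 6) to 4.67 (Rnf43, line 1), and Ptprk has ratios of 0.984 to 1.43.

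Comparison of Apc with P-Rspo3 sets the mutants side by side in the same medium, although it shares its libraries with the comparisons above. The line of origin and the doxycycline treatment of P-Rspo3 go with the group here too. Of the 9 genes 5 were tested. Rnf43 (log2 fold change 2.46, SE 0.13, edgeR adjusted p = 6.4e-07), Lgr5 (1.89, SE 0.29, adjusted p = 0.00042) and Znrf3 (1.68, SE 0.12, adjusted p = 4.8e-06) were called higher in Apc, and Rspo3, which passed the filter only through P-Rspo3, was called lower. By this rule 13.4% of 16456 genes were called higher and 13.3% lower. Lgr4 (0.87, adjusted p = 3.5e-06) and Ptprk (0.98, adjusted p = 0.0022) passed the adjusted p and lay below the fold threshold. The Ptprk value crossed that threshold without P-Rspo3 replicate 4d (1.23), without Apc replicate 1 (1.05) and without Apc replicate 2 (1.01).

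**Figure D4:**
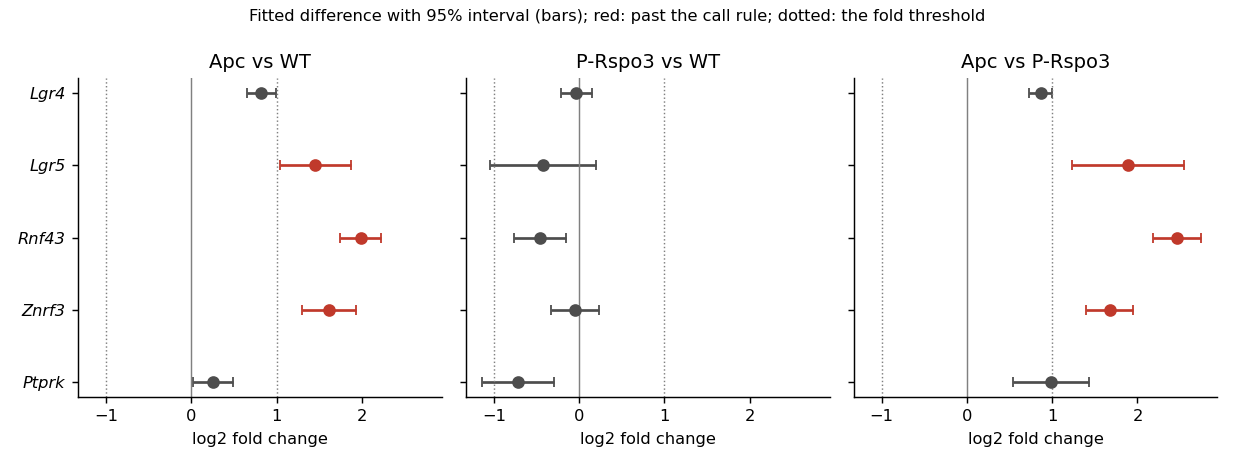
Fitted log2 fold changes (points) with 95% intervals (bars) for Lgr4, Lgr5, Rnf43, Znrf3 and Ptprk in the 3 comparisons; red points passed the adjusted p and the fold threshold (dotted lines at 1 and -1). Lgr5, Rnf43 and Znrf3 are red in both comparisons with Apc, at 1.45 to 2.46, and no point is red between P-Rspo3 and WT.

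The order of levels per length also differed between groups. By mean FPKM the order in WT was Lgr4 (30.6 ± 3.77, SD, n = 5), Lgr5 (29.9 ± 7.93), Rnf43 (26.1 ± 4.73), Ptprk (14.6 ± 2.27) and Znrf3 (3.76 ± 0.786). The ranges of Lgr4, Lgr5 and Rnf43 overlapped with their neighbours in this order, and those of Rnf43, Ptprk and Znrf3 did not. In Apc the order was Rnf43 (128.5 ± 11.2, SD, n = 4), Lgr5 (99.6 ± 18.7), Lgr4 (66.2 ± 2.44), Ptprk (21.2 ± 2.65) and Znrf3 (14.0 ± 2.51), and of these neighbours only Rnf43 and Lgr5 overlapped. In P-Rspo3 the order was Lgr4 (30.0 ± 2.13, SD, n = 4), Lgr5 (22.2 ± 9.31), Rnf43 (20.7 ± 4.68), Rspo3 (9.86 ± 2.49), Ptprk (8.93 ± 2.99) and Znrf3 (3.68 ± 0.357). Rspo3 and Ptprk overlapped there, as did Lgr4 with Lgr5 and Lgr5 with Rnf43.

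The balance between the ligases, and between the expressed receptors, was compared as the ratio of FPKM within each library. The FPKM ratio of Rnf43 to Znrf3 was 6.43, 6.46, 8.03, 6.78 and 7.37 in WT replicates 1, 2, 5, 6 and naive. It was 11.9, 8.54, 8.71 and 8.24 in Apc replicates 1, 2, 5 and 6, all above WT. In P-Rspo3 replicates 15d, 4d, M and F it was 6.38, 4.23, 5.83 and 6.01, all below the lowest WT library, by a narrow margin in replicate 15d. The mean log2 ratio was higher in Apc than in WT by 0.40 and lower in P-Rspo3 than in WT by 0.33 (two-sided exact permutation tests, both p = 0.0159, 0.0381 after Benjamini-Hochberg adjustment over 6 tests). Between Apc and P-Rspo3 the difference was 0.74 (p = 0.0286 in the exact permutation test, 0.0381 adjusted). The P-Rspo3 difference was 0.20 in size without replicate 4d, and the Apc difference was 0.28 without Apc replicate 1. With counts in place of FPKM, Apc replicate 6 lay below WT replicate 5, so Apc and WT overlapped on that scale. No call on either ratio changed with counts.

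The FPKM ratio of Lgr5 to Lgr4 was 0.670, 1.26, 1.08, 1.03 and 0.848 in WT replicates 1, 2, 5, 6 and naive. It was 1.11, 1.58, 1.83 and 1.52 in Apc replicates 1, 2, 5 and 6, of which replicate 1 lay inside the WT range. In P-Rspo3 replicates 15d, 4d, M and F it was 1.01, 0.541, 0.931 and 0.448. On the log2 scale Apc was higher than WT by 0.64 (p = 0.0317 in the two-sided exact permutation test, 0.0381 adjusted), a call lost in 8 of the 9 tests that left out 1 library, including those without WT replicate 1, 5, 6 or naive (each exact permutation p = 0.0571, where 4 against 4 allows 0.0286). Apc was higher than P-Rspo3 by 1.10 (p = 0.0286 in the exact test, 0.0381 adjusted). P-Rspo3 and WT differed by -0.47, within the spread (exact permutation test, p = 0.175).

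**Figure D5:**
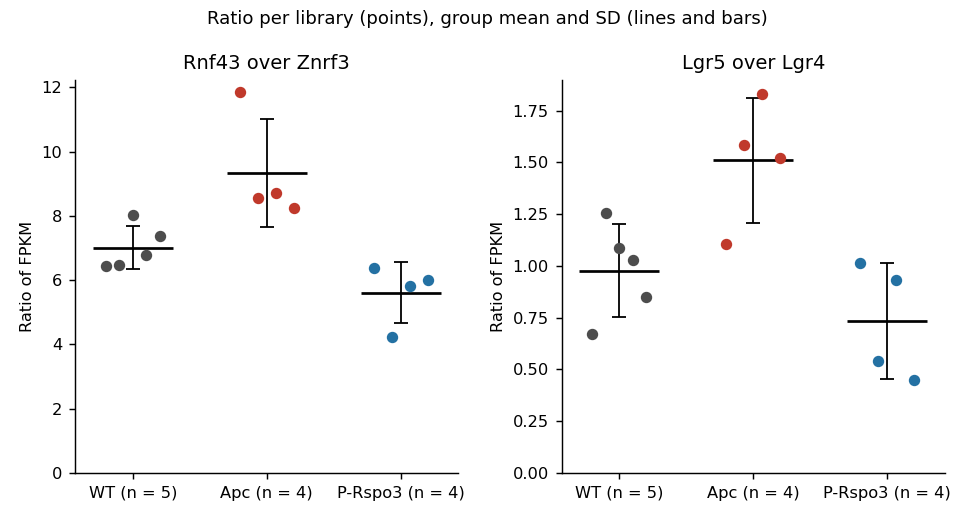
Ratio of FPKM in each library (points) for Rnf43 over Znrf3 and Lgr5 over Lgr4, with the group mean (line) and SD (bar) of WT (n = 5), Apc (n = 4) and P-Rspo3 (n = 4). For Rnf43 over Znrf3 the Apc libraries (8.24 to 11.9) lie above WT (6.43 to 8.03) and P-Rspo3 libraries (4.23 to 6.38) below it, while Lgr5 over Lgr4 overlaps between WT and both other groups.

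The Frizzled receptors on which RNF43 and ZNRF3 act, with their co-receptors and the Dishevelled proteins that relay the signal, formed a list of 15 genes. Between P-Rspo3 and WT 14 were tested and edgeR called 0, beside 1 of all 15992 genes called higher and 0 called lower. Between Apc and WT 15 were tested, of which 5 were called higher and 2 lower, and the median log2 fold change was 0.25. Over all genes 12.2% were called higher and 14.1% lower. Of the 5, Fzd10 passed the FPKM filter only through Apc, where it was high, and was not tested between P-Rspo3 and WT. Fzd6 rose from 2.22 ± 0.471 FPKM (SD, n = 5) to 11.9 ± 1.08 FPKM (SD, n = 4; log2 fold change 2.12) and Fzd7 from 9.06 ± 1.62 to 22.5 ± 2.28 FPKM (1.01). Fzd3 and Fzd8 rose from lower levels, with log2 fold changes of 3.26 and 1.20. These fold changes come from TMM-scaled counts, so they need not equal the ratio of mean FPKM. Fzd10 had 0 counts in every WT and P-Rspo3 library and 220 to 421 counts in Apc libraries.

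Fzd5, the Frizzled with the highest level in WT, fell from 20.8 ± 1.70 FPKM (SD, n = 5) to 6.21 ± 1.01 FPKM (SD, n = 4; log2 fold change -2.07), and Fzd4 fell from 4.14 ± 0.863 to 1.20 ± 0.319 FPKM (-2.08). Against P-Rspo3, Apc had the same 7 genes called in the same directions, and Fzd1 called higher as well (2.48). Over all genes 13.4% were called higher and 13.3% lower. In this comparison both Fzd10 and Fzd1 passed the FPKM filter only through Apc, where they were higher. The P-Rspo3 libraries had 0.0603 to 0.117 FPKM of Fzd1. Fzd1 was low throughout, with 0.322 ± 0.124 FPKM (SD, n = 5) in WT, 0.0846 ± 0.0237 FPKM (SD, n = 4) in P-Rspo3 and 0.570 ± 0.0713 FPKM (SD, n = 4) in Apc. Its log2 fold change was -1.94 between P-Rspo3 and WT (edgeR adjusted p = 0.096) and 0.52 between Apc and WT (adjusted p = 0.18), neither past the test. Fzd2, Fzd9, the co-receptors Lrp5 and Lrp6 and the genes Dvl1, Dvl2 and Dvl3 were called in none of the 3 comparisons.

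For the 5 expressed genes, the most similar profiles were sought among 12631 genes with a mean of at least 1 CPM, as the smallest root mean square difference of centred log2 CPM over the 13 libraries. The closest to Rnf43 were Cd14 (0.17), Gpsm1 (0.19) and Axin2 (0.19), and Axin2 is a negative regulator and common readout of Wnt signalling. The closest to Znrf3 were Il6st (0.12), Bcl2l11 (0.15) and Wdr6 (0.15), and those close to Lgr4 included Trp53 (0.063) and Mcm7 (0.075). For Lgr5 they were Mpzl1 (0.24), Camk1 (0.25) and a gene without a symbol. No gene was close to Rspo3, for which the smallest difference, to Dmtn, was 2.31 where the spread of Rspo3 itself was 3.66. Among all candidates Znrf3 ranked 105 in likeness to Rnf43, Lgr5 ranked 219 and Lgr4 ranked 989. In likeness to Lgr5, Znrf3 ranked 143, Rnf43 152 and Lgr4 742. In likeness to Znrf3 the receptors stood the other way, with Rnf43 at 367, Lgr4 at 532 and Lgr5 at 637. The difference is not scaled for the spread of each gene, which was 0.40 for Lgr4 and 1.06 for Rnf43, so a smaller shift changes the rank.

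The promoters of the 9 genes were searched for the T-cell factor motifs CTTTGAA and CTTTGAT on both strands. RefSeq windows (GRCm38.p6) of 250 bases before to 50 bases after the start were given for 5 of the 9 genes (Rspo1, Rspo4, Lgr4, Lgr6 and Rnf43), in 6 windows. Neither motif was present in these 6 windows, and 8.65% of all 32851 windows hold at least 1 of them.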

How the data were processed

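RNA-seq of 15 organoid libraries was used. Per the labels and methods, the authors mapped reads with STAR against GRCm38, and deposited raw counts per gene from HTSeq 0.6.0 and FPKM from Cufflinks 2.2.1. The annotation release and strand setting are not given in the sources used here. Of 43629 genes counted, 43437 have an FPKM and 42462 were matched to a symbol; positions and transcripts are GENCODE M21.

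The test was edgeR's quasi-likelihood test (version 4.0.16, R 4.3.3) with TMM scaling, in 1 fit for each pair of groups, on genes of at least 0.1 FPKM in 4 libraries. A call needed a Benjamini-Hochberg adjusted p below 0.05 over all genes tested, with a log2 fold change beyond 1 in either direction. Intervals of 95% come from the same test. Each SE is the size of the log2 fold change divided by the square root of the F of that test. Exact permutation tests used scipy 1.17.1, and at most 3 counts was read as not detectable. Alternatives included DESeq2 1.42.0 and limma 3.58.1 on log2(FPKM + 1) and log2(FPKM + 0.1). In simulated counts, 200 of the better-counted genes were changed by a log2 fold change of 2 in either direction. Of these 200, 193 were recovered for Apc against WT, with 2 false calls. For P-Rspo3 against WT 192 were recovered, with 8 false calls. Smaller differences were not simulated, so this gives no power for them.

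The 9 genes and the gene lists were chosen with earlier results of these data known. The genes named are these 9, Ptprk, receptor list genes past the call rule, the 3 closest profiles of each gene (1 of these genes is not reported here), and markers beside a result. Same-numbered WT and Apc libraries were taken as the same lines by the numbers in their titles. Their deviations from the group means correlated with a median of 0.098 over 4 pairs (0.0020 to 0.190). Over the 12 pairs of unlike number the median was -0.026 (-0.173 to 0.122), so the ranges overlap. Every pair of libraries within a group differed by more than sampling noise (lowest chi-square per gene 22.4).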

Additional observations from a re-analysis of the deposited data

Results flagged for a closer look

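The NAIVE_F library, in no group because its title reads as untreated and its genotype label as P-Rspo3, held 729 Rspo3 counts (8.54 FPKM), where the WT libraries held at most 1. Its Ptprk level was 10.3 FPKM. LIPO, whose genotype label is dox-naive WT, held 0 Rspo3 counts and had 13.8 FPKM of Ptprk. In 26 groups of 4 or 5 libraries, 3 values stood apart from the rest of their group by Dixon's test at the 95% level, where chance alone gives about 1 in 20. Rnf43 was 34.5 FPKM and Ptprk 18.6 FPKM in WT replicate 6, each the highest of 5, and the ratio of Rnf43 to Znrf3 was 11.9 in Apc replicate 1, the highest of 4. In TMM-scaled CPM, Rnf43 in WT replicate 6 (119.5) was close to WT replicate 2 (112.2). Ptprk in WT replicate 6 (148.1) still lay well above the next, WT replicate 5 (114.0).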

How the results depend on the processing

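Rspo3, Lgr5, Rnf43 and Znrf3 kept their calls under the alternatives run, apart from the exception below. With NAIVE_F counted as WT, as its title reads, Rspo3 was no longer called between P-Rspo3 and WT (log2 fold change 2.69, adjusted p = 0.47), so 0 of the 9 genes were called. Without the FPKM filter, 5 of the 9 were called higher in Apc than in WT, beside 2766 of all 26170 genes then tested. The added calls were Rspo3 and Lgr6, and Lgr6 had at most 4 counts in any Apc library and 0 in WT. With the line as a replicate block no call changed (Lgr5 1.41, Rnf43 1.93, Znrf3 1.57, Lgr4 0.81). The differences of Lgr4 and Znrf3 between P-Rspo3 and WT were near 0 and changed sign: Lgr4 was 0.0061 with both conflicting libraries placed by genotype, and it ranged from -0.069 to 0.029, and Znrf3 from -0.10 to 0.069, as single libraries were left out. Leaving out single libraries, 3 to 4 of the 9 were called higher in Apc than in WT, beside 1960 to 2149 of all genes. The added gene was Rspo3, without Apc replicate 5, where it passed the filter only through Apc. Differences in log2 ratio ranged, for Rnf43 to Znrf3, from 0.28 to 0.46 (Apc to WT), -0.40 to -0.20 (P-Rspo3 to WT) and 0.61 to 0.80 (Apc to P-Rspo3), and for Lgr5 to Lgr4 from 0.51 to 0.78 (Apc to WT), -0.65 to -0.26 (P-Rspo3 to WT) and 0.89 to 1.29 (Apc to P-Rspo3). The Lgr5 to Lgr4 call between Apc and WT was lost in 8 of 9 such tests, with adjusted p = 0.0686 without WT replicate 1, 5, 6 or naive, where 4 libraries against 4 could have passed. The Rnf43 to Znrf3 calls against WT were lost in the 4 tests of each that left out a mutant library, at the smallest p that 3 against 5 allows in the exact permutation test (p = 0.0357). With 3 libraries against 4, the exact permutation test cannot go below p = 0.0571, so the loss of the calls between Apc and P-Rspo3 says nothing about stability. Over all genes, calls between P-Rspo3 and WT ranged from 0 to 266 with the setting, the latter without WT replicate naive, and between Apc and WT from 2550 to 9892 where the main count was 4412.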

Other observations

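The remaining genes were read in the same 2 libraries without a group. In NAIVE_F, Lgr4 had 33.8 FPKM, Lgr5 26.4 FPKM, Rnf43 16.9 FPKM and Znrf3 3.25 FPKM, the ratio of Rnf43 to Znrf3 was 5.20, and Rspo3 made up 45.3% of the summed FPKM of Ptprk and Rspo3. In LIPO, Lgr4 had 30.4 FPKM, Lgr5 18.0 FPKM, Rnf43 20.9 FPKM and Znrf3 3.26 FPKM, and the ratio of Rnf43 to Znrf3 was 6.41. Rspo4 held 6 counts in NAIVE_F and 5 in LIPO.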
